A study of Mus musculus with 9 samples.

Results

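The messenger RNAs of 37 genes that copy DNA and supply its nucleotides were followed in macrophages of C57BL6 mice, cells that engulf microbes and debris, here derived from bone marrow. The genes were taken from a list of names, matched to the mouse Ensembl identifiers of a count table of 22001 genes. All 37 had an identifier, and all 37 passed the filter on low counts that left 11469 genes for testing. RNA sequencing covered 9 libraries in 3 groups of 3, each after 6 h of treatment. The 3SL-labelled libraries (A2plus, B2plus and C2plus) were labelled as treated with 100 µg/ml Pam3CSK4 and 100 µl/ml 3SL, the Pam3CSK4-labelled libraries (D1, D2 and D3) with 100 µg/ml Pam3CSK4 alone, and the untreated-labelled libraries (A2, B2 and C2) with PBS. Pam3CSK4 is a synthetic lipopeptide ligand of Toll-like receptors. 3SL is read from the series title as a sialyllactose of human milk. The 3SL-labelled libraries also carry a treatment tag that spells the agents Pamc4 and CSL, and the labels give no age, sex or number of animals.

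The labels must be read with care, because the inflammatory genes did not follow them. Il1b, which encodes interleukin-1 beta, stood at 7495, 8353 and 8561 CPM (the count relative to the scaled library size) in the 3SL-labelled libraries, 7.36, 4.30 and 7.03 CPM in the Pam3CSK4-labelled libraries and 10260.2, 10559 and 9661 CPM in the untreated-labelled libraries. Tnf, which encodes tumour necrosis factor, stood at 1219, 1249.8 and 1332 CPM, 18.9, 17.6 and 18.6 CPM and 1731, 1729 and 1651 CPM in the same order of groups. The Pam3CSK4-labelled libraries were thus the low ones for both cytokines, although their label names a stimulus of these genes. Groups are therefore named by their labels throughout, and every direction given here rests on those labels. The Pam3CSK4-labelled libraries also carry the letter D where the other 6 carry A, B or C, so the label and whatever the letter stands for cannot be told apart. Total counts ran from 7472482 to 43980309 per library. Pairs of libraries of 1 group differed by more than sampling noise (a chi-square statistic of 1.83 to 2.91 for each degree of freedom), and each was counted as its own library. Whether the libraries of 1 group are separate cultures is not in the labels, so the p-values measure the spread between these libraries, which may be technical.

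Chromosomal DNA is copied in steps that each have their own proteins. The origin recognition complex with Cdc6 and Cdt1 loads the ring of MCM proteins onto DNA, and Mcm10, Cdc45 and the GINS complex turn that ring into an unwinding helicase. Polymerase alpha and primase then lay down primers, the clamp loader RFC places the sliding clamp PCNA, polymerases delta and epsilon extend the strands, and flap endonuclease and ligase join the fragments of the lagging strand, while ribonucleotide reductase and thymidylate enzymes make the building blocks. These genes are known to be switched on together before S phase through E2F factors. Macrophages grown with a growth factor divide in culture, and Toll-like receptor ligands are known to arrest that division.

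All 37 genes rose in the Pam3CSK4-labelled against the untreated-labelled libraries, and all 37 fell in the 3SL-labelled against the Pam3CSK4-labelled libraries. Across all 11469 genes tested, 39.0% were called higher and 35.9% lower in the Pam3CSK4-labelled against the untreated-labelled libraries, at an adjusted p below 0.05 by the quasi-likelihood test of edgeR, adjusted by Benjamini-Hochberg over all genes. The median log2 fold change of the 37 genes was 2.52, a 5.73-fold difference, beside 0.03 for all genes tested. It ran from 0.61 for Tyms (1.52-fold) to 4.03 for Cdc6 (16.4-fold), with standard errors of 0.0388 to 0.131 and adjusted p of 2.69e-28 to 2.74e-08. At least 2-fold higher were 35 of the 37, all but Tyms and Pola2, against 13.2% of all genes. The 37 genes and the related lists were chosen with earlier results of these data known, so such contrasts are descriptions only. The 3 Pam3CSK4-labelled libraries lay above the 3 untreated-labelled ones for each of the 37 genes, and 76.0% of all genes tested had groups that did not overlap.

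In the 3SL-labelled against the Pam3CSK4-labelled libraries 34.7% of all genes were called higher and 36.8% lower, with a median of -0.02, and the median of the 37 genes was -2.60. Their log2 fold changes ran from -3.87 for Mcm2 to -0.73 for Tyms, with adjusted p of 2.83e-27 to 1.58e-08. At least 2-fold lower were 35, beside 12.5% of all genes, and no gene of the 37 had groups that overlapped, against 73.1% of all genes without overlap. Both comparisons use the same Pam3CSK4-labelled libraries, so the second is not a separate observation of their level. Together the 37 genes took 0.0670 to 0.0729% of all counts in the 3SL-labelled libraries, 0.450 to 0.461% in the Pam3CSK4-labelled libraries and 0.0652 to 0.0682% in the untreated-labelled libraries. Their summed level was 740.2 ± 27.8 CPM, 3982 ± 48.6 CPM and 723 ± 15.7 CPM in those groups (SD, n = 3 each). In such bulk RNA, a larger share of cells in S phase and more RNA of these genes per cell cannot be told apart. Without the scaling of library sizes the median of all genes moved to 0.34 and -0.29 in these comparisons, where 6882 genes were then higher and 2380 lower in the first and 2434 higher and 6393 lower in the second. The 37 genes kept both directions and all 37 calls there too.

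**Figure D1:**
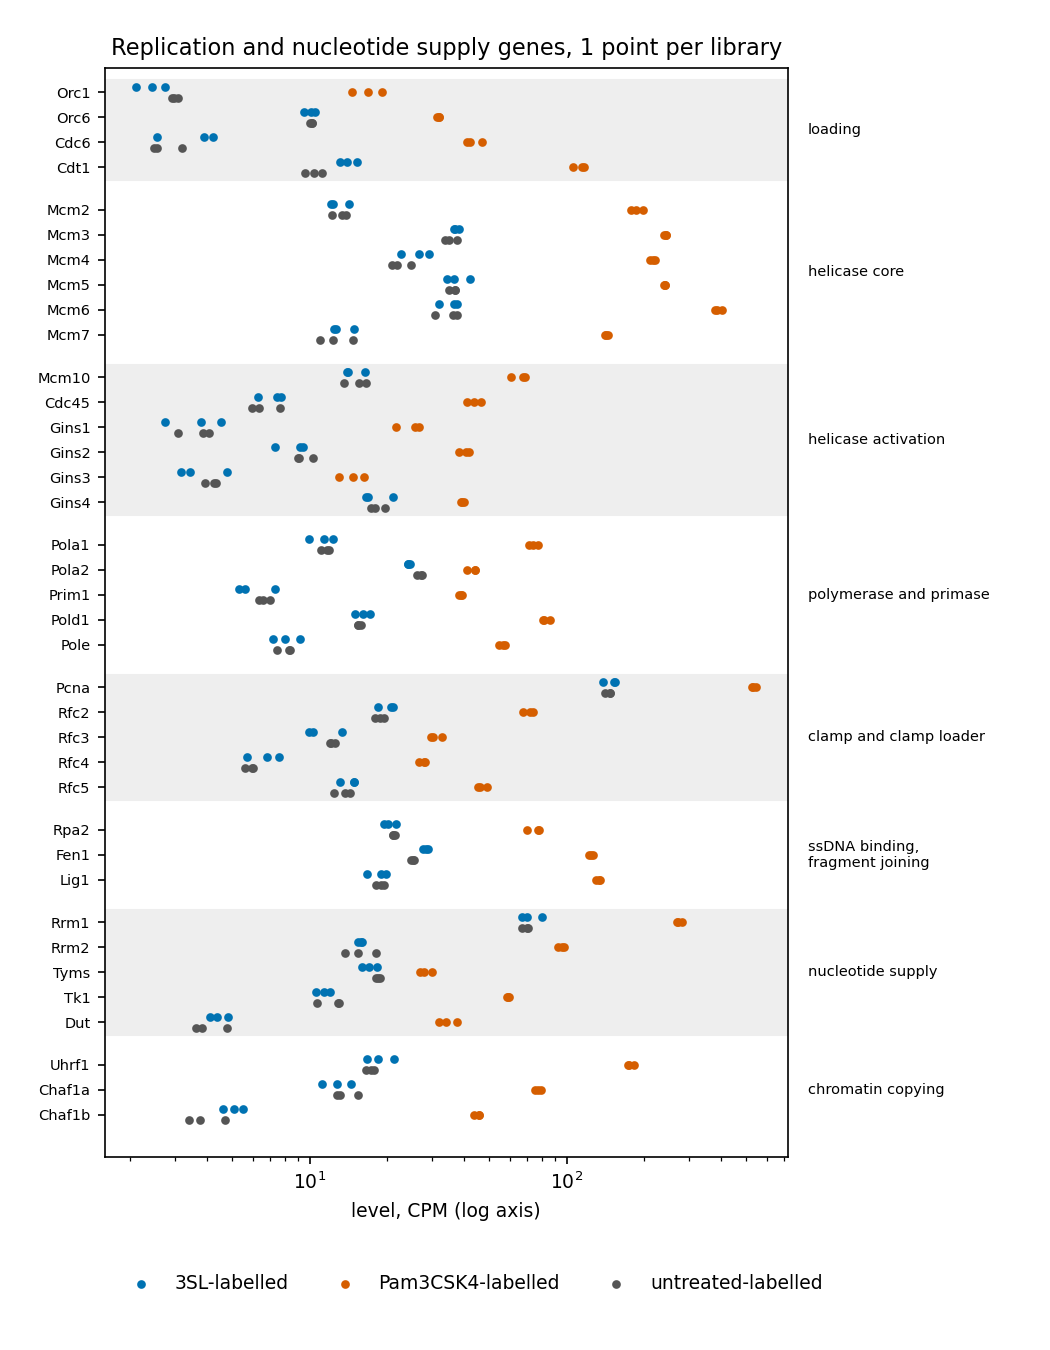
Level of each of the 37 genes in each library, in CPM on a log axis, 1 point per library, grouped by role from origin loading at the top to chromatin copying at the bottom. For every gene the 3 orange points of the Pam3CSK4-labelled libraries lie to the right of the blue (3SL-labelled) and grey (untreated-labelled) points, with the narrowest gap at Tyms and Pola2.

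**Figure D2:**
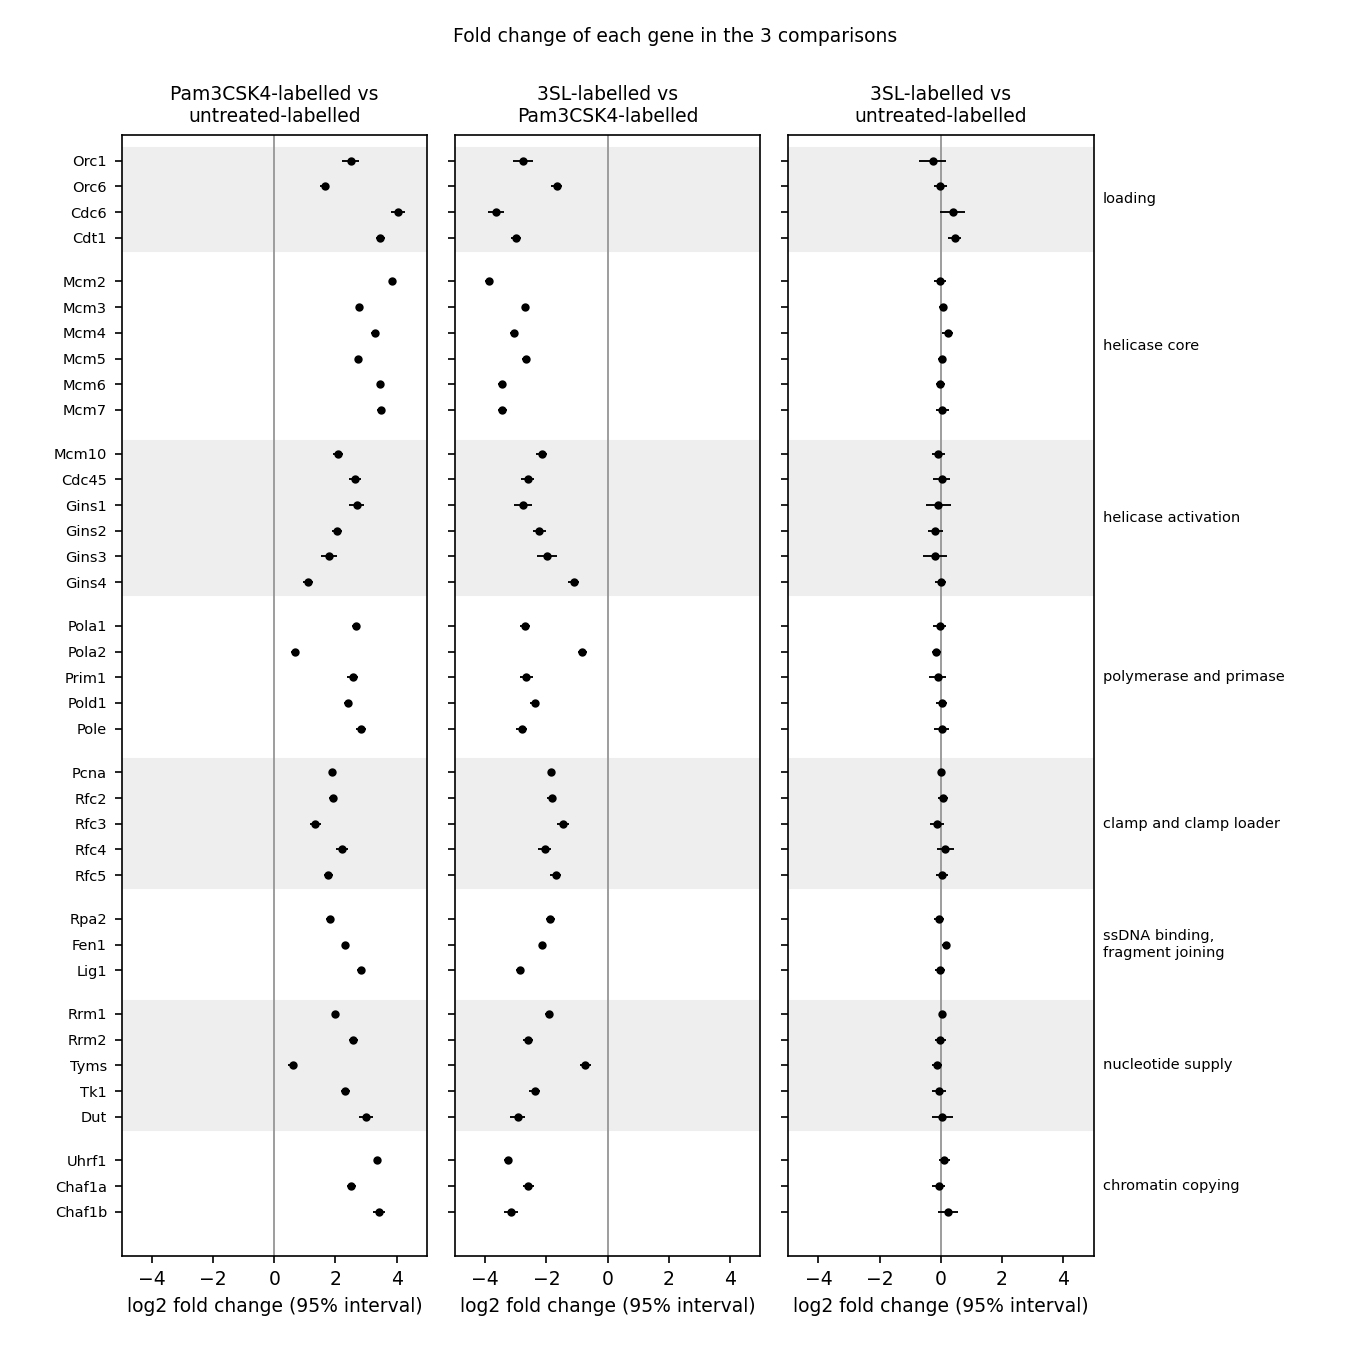
Log2 fold change of each gene in the 3 comparisons, with the 95% interval of the edgeR fit as a bar. In the left panel every interval lies above 0, in the middle panel every interval lies below 0, and in the right panel Cdt1, Mcm4 and Fen1 are the genes whose interval does not include 0.

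Because the genes moved together, the stretch of DNA just before their starts is shown for 5 of them. RefSeq promoter windows on GRCm38.p6, from 250 bases before to 50 after a start, were found for 31 of the 37 genes. Both strands were searched for 4 spellings of the E2F letters (TTTCCCGC, TTTCGCGC, TTTGCCGC and TTTGGCGC), which may overlap each other when read on opposite strands. Printed are the 190 bases that end just before the start, 5′ to 3′ on the strand of the gene, with E2F letters in capitals. The first 3 genes hold such letters in this stretch. Mcm2, the helicase subunit with the largest log2 fold change, and Tyms, the gene with the smallest of all, hold none in their whole window.

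Mcm5, chr8:75109319-75109508, plus strand: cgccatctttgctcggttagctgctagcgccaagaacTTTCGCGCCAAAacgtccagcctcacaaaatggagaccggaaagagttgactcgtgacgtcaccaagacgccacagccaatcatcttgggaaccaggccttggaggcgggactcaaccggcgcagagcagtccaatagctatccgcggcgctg

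Mcm6, chr1:128359706-128359895, minus strand: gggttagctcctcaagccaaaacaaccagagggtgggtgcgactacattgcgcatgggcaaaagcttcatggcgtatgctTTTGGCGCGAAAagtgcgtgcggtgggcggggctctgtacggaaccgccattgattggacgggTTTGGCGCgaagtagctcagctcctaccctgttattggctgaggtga

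Pola1, chrX:93632156-93632345, minus strand: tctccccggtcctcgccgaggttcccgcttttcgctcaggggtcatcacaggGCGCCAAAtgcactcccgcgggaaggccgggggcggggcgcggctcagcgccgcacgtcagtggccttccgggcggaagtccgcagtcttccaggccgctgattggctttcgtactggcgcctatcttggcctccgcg

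Mcm2, chr6:88898781-88898970, minus strand: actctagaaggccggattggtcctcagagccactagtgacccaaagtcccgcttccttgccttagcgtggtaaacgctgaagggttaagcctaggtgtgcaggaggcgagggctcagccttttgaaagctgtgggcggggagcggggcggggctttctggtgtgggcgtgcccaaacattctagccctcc

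Tyms, chr5:30073626-30073815, minus strand: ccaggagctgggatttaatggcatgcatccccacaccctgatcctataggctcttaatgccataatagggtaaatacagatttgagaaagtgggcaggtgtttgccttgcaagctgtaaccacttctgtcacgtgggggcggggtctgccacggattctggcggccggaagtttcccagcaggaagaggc

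In Mcm5 and Mcm6 a forward and a reverse match overlap to form 1 longer run of capitals, and Mcm6 has a further match closer to its start. E2F letters lay in the window of 13 of the 31 genes (41.9%), beside 4.77% of 9137 tested genes with a window and 2.6% of all 27025 genes in the table. By role, they were found in 3 of 4 loading genes, 4 of 5 helicase core genes with a window, 1 of 3 helicase activation genes, 2 of 4 polymerase genes and 1 of 4 clamp and clamp loader genes. They were also found in 1 of 3 genes of single-strand binding and fragment joining, in 1 of 3 chromatin genes and in 0 of 5 nucleotide supply genes. The median log2 fold change in the Pam3CSK4-labelled against the untreated-labelled libraries was 2.78 for the 13 genes with the letters (1.34 for Rfc3 to 4.03 for Cdc6) and 2.26 for the 18 without (0.61 for Tyms to 3.86 for Mcm2). The ranges overlapped over most of their width, and no test was made of this split. CCAAT was found in 61.3% of the genes against 43.2% of tested genes, and the CHR letters TTTGAA and TTCGAA in 19.4% against 16.7%. A match describes the letters and is neither a site nor a cause, and the lack of one says only that these letters are not in this window.

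The 4 genes of origin loading had a median log2 fold change of 2.98 in the Pam3CSK4-labelled against the untreated-labelled libraries and of -2.88 in the 3SL-labelled against the Pam3CSK4-labelled libraries. Gene positions are those of GENCODE M21 on GRCm38. Cdc6 (ENSMUSG00000017499; chromosome 11, 98907801 to 98923940, plus strand), an ATPase that joins the origin recognition complex to load the MCM ring, rose the most of all 37 genes. Its level was 4.22, 2.55 and 3.86 CPM in the 3SL-labelled libraries, 46.7, 41.0 and 41.9 CPM in the Pam3CSK4-labelled libraries and 2.47, 2.53 and 3.18 CPM in the untreated-labelled libraries. The Pam3CSK4-labelled values were far above the rest, and the other 2 groups overlapped. Cdc6 was 16.4-fold higher in Pam3CSK4-labelled than in untreated-labelled libraries (log2 4.03 ± 0.111, adjusted p = 2.15e-22) and 12.4-fold lower in 3SL-labelled than in Pam3CSK4-labelled libraries (log2 -3.63 ± 0.128, adjusted p = 8.62e-20). Cdt1 (ENSMUSG00000006585; chromosome 8, 122568015 to 122573554, plus strand) brings the MCM ring to the origin and is destroyed once S phase begins. Cdt1 stood at 15.3, 13.1 and 14.0 CPM in the 3SL-labelled libraries, 115, 105 and 117 CPM in the Pam3CSK4-labelled libraries and 11.2, 9.59 and 10.4 CPM in the untreated-labelled libraries. No groups overlapped, and the 3SL-labelled values lay just above the untreated-labelled ones. Cdt1 was 11.0-fold higher in Pam3CSK4-labelled than in untreated-labelled libraries (log2 3.46 ± 0.0701, adjusted p = 1.78e-25) and 7.99-fold lower in 3SL-labelled than in Pam3CSK4-labelled libraries (log2 -2.998 ± 0.0766, adjusted p = 4.81e-23). Orc1 (ENSMUSG00000028587; chromosome 4, 108579423 to 108614833, plus strand), the largest subunit of the origin recognition complex, had the largest p of the 4. Orc1 measured 2.11, 2.74 and 2.44 CPM in the 3SL-labelled libraries, 16.9, 14.6 and 19.2 CPM in the Pam3CSK4-labelled libraries and 2.91, 2.96 and 3.08 CPM in the untreated-labelled libraries. Its 3SL-labelled values, drawn from 15 to 28 counts per library, were below the untreated-labelled ones without overlap. It was 5.65-fold higher in Pam3CSK4-labelled than in untreated-labelled libraries (log2 2.50 ± 0.131, adjusted p = 7.75e-16) and 6.79-fold lower in 3SL-labelled than in Pam3CSK4-labelled libraries (log2 -2.76 ± 0.165, adjusted p = 1.66e-14). Orc6, another subunit of that complex, was 3.13-fold higher in the Pam3CSK4-labelled against the untreated-labelled libraries, the smallest change of the role. Other subunits of the complex are not among the 37 genes and changed less. Their log2 fold changes in that comparison were 0.63 for Orc2, -0.03 for Orc3 (not called), -0.17 for Orc4 and 0.47 for Orc5. The median of a role therefore depends on which subunits were listed.

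The 6 subunits of the MCM2-7 ring, the core of the replicative helicase, had a median log2 fold change of 3.37 in the Pam3CSK4-labelled against the untreated-labelled libraries, and of -3.25 in the 3SL-labelled against the Pam3CSK4-labelled libraries. Mcm6 (ENSMUSG00000026355; chromosome 1, 128331590 to 128359664, minus strand) had the smallest p of all 37 genes. Mcm6 stood at 36.4, 37.6 and 31.9 CPM in the 3SL-labelled libraries, 403, 385 and 379 CPM in the Pam3CSK4-labelled libraries and 36.0, 37.3 and 30.9 CPM in the untreated-labelled libraries. Only the Pam3CSK4-labelled libraries stood apart. Mcm6 was 10.9-fold higher in Pam3CSK4-labelled than in untreated-labelled libraries (log2 3.45 ± 0.0527, adjusted p = 2.69e-28) and 11.0-fold lower in 3SL-labelled than in Pam3CSK4-labelled libraries (log2 -3.46 ± 0.0582, adjusted p = 2.83e-27). Mcm2 (ENSMUSG00000002870; chromosome 6, 88883474 to 88898780, minus strand) is the subunit whose tail also binds histones. It stood at 14.2, 12.1 and 12.3 CPM in the 3SL-labelled libraries, 197, 178 and 186 CPM in the Pam3CSK4-labelled libraries and 13.4, 12.2 and 13.9 CPM in the untreated-labelled libraries. The 3SL-labelled and untreated-labelled values covered nearly the same range. Mcm2 was 14.5-fold higher in Pam3CSK4-labelled than in untreated-labelled libraries (log2 3.86 ± 0.0596, adjusted p = 3.36e-28) and 14.6-fold lower in 3SL-labelled than in Pam3CSK4-labelled libraries (log2 -3.87 ± 0.0692, adjusted p = 1.12e-26). Mcm7 (ENSMUSG00000029730; chromosome 5, 138164583 to 138172422, minus strand) had the largest p of the 6. Its annotated exons overlap the microRNA genes Mir93 and Mir25 on the same strand, by 88 and 84 bases. Mcm7 stood at 14.9, 12.4 and 12.6 CPM in the 3SL-labelled libraries, 145, 143 and 141 CPM in the Pam3CSK4-labelled libraries and 14.8, 12.3 and 10.9 CPM in the untreated-labelled libraries. Library C2 had the lowest value and libraries A2plus and A2 the highest outside the Pam3CSK4-labelled group. Mcm7 was 11.2-fold higher in Pam3CSK4-labelled than in untreated-labelled libraries (log2 3.49 ± 0.0661, adjusted p = 3.65e-26) and 10.9-fold lower in 3SL-labelled than in Pam3CSK4-labelled libraries (log2 -3.44 ± 0.0761, adjusted p = 1.63e-24). Mcm4, Mcm3 and Mcm5 were 9.75-fold, 6.87-fold and 6.63-fold higher in the Pam3CSK4-labelled against the untreated-labelled libraries.

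The 6 genes of helicase activation changed less, with a median log2 fold change of 2.07 in the Pam3CSK4-labelled against the untreated-labelled libraries and of -2.19 in the 3SL-labelled against the Pam3CSK4-labelled libraries. Cdc45 (ENSMUSG00000000028; chromosome 16, 18780447 to 18811987, minus strand) binds the MCM ring as part of the active helicase. Cdc45 stood at 7.45, 6.27 and 7.73 CPM in the 3SL-labelled libraries, 46.3, 40.9 and 43.4 CPM in the Pam3CSK4-labelled libraries and 6.33, 7.63 and 5.94 CPM in the untreated-labelled libraries. Its Pam3CSK4-labelled values were the high ones, and the 3SL-labelled and untreated-labelled values overlapped. Cdc45 was 6.23-fold higher in Pam3CSK4-labelled than in untreated-labelled libraries (log2 2.64 ± 0.0903, adjusted p = 3.67e-20) and 6.10-fold lower in 3SL-labelled than in Pam3CSK4-labelled libraries (log2 -2.61 ± 0.107, adjusted p = 3.02e-18). Mcm10 (ENSMUSG00000026669; chromosome 2, 4989714 to 5012791, minus strand) helps to start unwinding and is not part of the ring. Mcm10 measured 16.4, 14.0 and 14.1 CPM in the 3SL-labelled libraries, 68.9, 60.8 and 67.7 CPM in the Pam3CSK4-labelled libraries and 16.6, 15.6 and 13.6 CPM in the untreated-labelled libraries. The spread within the 3SL-labelled and untreated-labelled groups was larger than the gap between them. Mcm10 was 4.24-fold higher in Pam3CSK4-labelled than in untreated-labelled libraries (log2 2.08 ± 0.0740, adjusted p = 8.73e-20) and 4.46-fold lower in 3SL-labelled than in Pam3CSK4-labelled libraries (log2 -2.16 ± 0.0857, adjusted p = 1.45e-18). Gins3 (ENSMUSG00000031669; chromosome 8, 95633453 to 95645060, plus strand), a subunit of the GINS complex, had the largest p of the role. Gins3 stood at 4.78, 3.43 and 3.15 CPM in the 3SL-labelled libraries, 16.2, 13.0 and 14.7 CPM in the Pam3CSK4-labelled libraries and 3.93, 4.32 and 4.24 CPM in the untreated-labelled libraries. Its groups were still apart, with the lowest Pam3CSK4-labelled value well above the highest of the rest. Gins3 was 3.46-fold higher in Pam3CSK4-labelled than in untreated-labelled libraries (log2 1.79 ± 0.128, adjusted p = 6.53e-13) and 3.94-fold lower in 3SL-labelled than in Pam3CSK4-labelled libraries (log2 -1.98 ± 0.157, adjusted p = 7.73e-12). The other GINS subunits were 6.50-fold (Gins1), 4.14-fold (Gins2) and 2.15-fold (Gins4) higher in the Pam3CSK4-labelled against the untreated-labelled libraries, so subunits of 1 complex did not change by 1 common factor. Of the exon bases of Gins2, 67.3% are overlapped by Gse1 on the opposite strand, and the strand setting of the counting is not given in the sources used here.

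Among the 5 genes of polymerases and primase, the median log2 fold change was 2.56 in the Pam3CSK4-labelled against the untreated-labelled libraries and -2.66 in the 3SL-labelled against the Pam3CSK4-labelled libraries. Pold1 (ENSMUSG00000038644; chromosome 7, 44532746 to 44548849, minus strand) is the catalytic subunit of polymerase delta, which extends the lagging strand. Pold1 stood at 17.1, 15.0 and 16.2 CPM in the 3SL-labelled libraries, 81.4, 86.3 and 81.1 CPM in the Pam3CSK4-labelled libraries and 15.5, 15.8 and 15.5 CPM in the untreated-labelled libraries. The Pam3CSK4-labelled values were the high ones, and the rest lay within a narrow band. Pold1 was 5.30-fold higher in Pam3CSK4-labelled than in untreated-labelled libraries (log2 2.41 ± 0.0630, adjusted p = 6.92e-23) and 5.19-fold lower in 3SL-labelled than in Pam3CSK4-labelled libraries (log2 -2.38 ± 0.0718, adjusted p = 2.48e-21). Pola1 (ENSMUSG00000006678; chromosome X, 93304767 to 93632155, minus strand), the catalytic subunit of polymerase alpha, starts each new strand behind the primase. Pola1 measured 9.98, 11.4 and 12.3 CPM in the 3SL-labelled libraries, 74.2, 71.5 and 77.0 CPM in the Pam3CSK4-labelled libraries and 11.0, 11.9 and 11.7 CPM in the untreated-labelled libraries. Again 1 group stood apart. Pola1 was 6.38-fold higher in Pam3CSK4-labelled than in untreated-labelled libraries (log2 2.67 ± 0.0700, adjusted p = 7.01e-23) and 6.55-fold lower in 3SL-labelled than in Pam3CSK4-labelled libraries (log2 -2.71 ± 0.0814, adjusted p = 2.10e-21). Pola2 (ENSMUSG00000024833; chromosome 19, 5940542 to 5964202, minus strand), the regulatory partner of Pola1 in the same complex, changed far less. Pola2 stood at 24.0, 24.7 and 24.1 CPM in the 3SL-labelled libraries, 44.0, 44.1 and 41.0 CPM in the Pam3CSK4-labelled libraries and 27.2, 26.1 and 27.1 CPM in the untreated-labelled libraries. No groups overlapped, and the 3SL-labelled values were the lowest of the 9. Pola2 was 1.61-fold higher in Pam3CSK4-labelled than in untreated-labelled libraries (log2 0.69 ± 0.0625, adjusted p = 1.08e-10) and 1.77-fold lower in 3SL-labelled than in Pam3CSK4-labelled libraries (log2 -0.83 ± 0.0710, adjusted p = 4.21e-11). The 95% interval of its log2 fold change in the Pam3CSK4-labelled against the untreated-labelled libraries, 0.56 to 0.82, lay wholly below that of Pola1, 2.53 to 2.82. Pole, the catalytic subunit of polymerase epsilon on the leading strand, was 7.17-fold higher, and Prim1, the catalytic subunit of primase, was 5.89-fold higher in the same comparison.

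The clamp and its loader had the smallest median log2 fold change of the 8 roles, 1.88 in the Pam3CSK4-labelled against the untreated-labelled libraries and -1.83 in the 3SL-labelled against the Pam3CSK4-labelled libraries. Pcna (ENSMUSG00000027342; chromosome 2, 132249162 to 132253314, minus strand), is the sliding clamp that holds polymerases on DNA. Pcna stood at 154, 153 and 138 CPM in the 3SL-labelled libraries, 548, 534 and 526 CPM in the Pam3CSK4-labelled libraries and 148, 148 and 141 CPM in the untreated-labelled libraries. Only the Pam3CSK4-labelled values stood apart, and both other groups overlapped. Pcna was 3.67-fold higher in Pam3CSK4-labelled than in untreated-labelled libraries (log2 1.88 ± 0.0388, adjusted p = 2.80e-25) and 3.61-fold lower in 3SL-labelled than in Pam3CSK4-labelled libraries (log2 -1.85 ± 0.0407, adjusted p = 1.35e-24). Rfc2 (ENSMUSG00000023104; chromosome 5, 134581366 to 134601805, plus strand) is a small subunit of the clamp loader. Rfc2 stood at 20.8, 18.4 and 21.1 CPM in the 3SL-labelled libraries, 67.8, 73.8 and 71.9 CPM in the Pam3CSK4-labelled libraries and 18.7, 19.5 and 18.0 CPM in the untreated-labelled libraries. The Pam3CSK4-labelled values were well above the other groups, which overlapped. Rfc2 was 3.76-fold higher in Pam3CSK4-labelled than in untreated-labelled libraries (log2 1.91 ± 0.0648, adjusted p = 2.99e-20) and 3.55-fold lower in 3SL-labelled than in Pam3CSK4-labelled libraries (log2 -1.83 ± 0.0729, adjusted p = 1.57e-18). Rfc3 (ENSMUSG00000033970; chromosome 5, 151642756 to 151651242, minus strand), a further small subunit, had the largest p of the role. Rfc3 measured 10.3, 13.3 and 9.96 CPM in the 3SL-labelled libraries, 30.2, 29.6 and 32.8 CPM in the Pam3CSK4-labelled libraries and 12.0, 12.2 and 12.5 CPM in the untreated-labelled libraries. Library B2plus was the highest of the 6 libraries outside the Pam3CSK4-labelled group. Rfc3 was 2.53-fold higher in Pam3CSK4-labelled than in untreated-labelled libraries (log2 1.34 ± 0.0851, adjusted p = 5.19e-14) and 2.73-fold lower in 3SL-labelled than in Pam3CSK4-labelled libraries (log2 -1.45 ± 0.09997, adjusted p = 3.90e-13). Rfc4 and Rfc5 were 4.64-fold and 3.38-fold higher in the Pam3CSK4-labelled against the untreated-labelled libraries. Of the exon bases of Rfc2, 15.1% are overlapped by Lat2 on the opposite strand.

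The 3 genes of single-strand binding and fragment joining had medians of 2.31 and -2.14 in the same comparisons. Lig1 (ENSMUSG00000056394; chromosome 7, 13277283 to 13311433, plus strand), the ligase that seals lagging strand fragments, changed the most. Lig1 stood at 19.0, 19.8 and 16.7 CPM in the 3SL-labelled libraries, 134, 135 and 131 CPM in the Pam3CSK4-labelled libraries and 19.4, 18.1 and 19.0 CPM in the untreated-labelled libraries. The Pam3CSK4-labelled values were high and tightly grouped, and the others overlapped. Lig1 was 7.12-fold higher in Pam3CSK4-labelled than in untreated-labelled libraries (log2 2.83 ± 0.0558, adjusted p = 9.20e-26) and 7.21-fold lower in 3SL-labelled than in Pam3CSK4-labelled libraries (log2 -2.85 ± 0.0640, adjusted p = 2.29e-24). Fen1 (ENSMUSG00000024742; chromosome 19, 10199132 to 10204169, minus strand) is the nuclease that trims the flaps of those fragments. Fen1 stood at 27.5, 28.4 and 28.9 CPM in the 3SL-labelled libraries, 127, 122 and 125 CPM in the Pam3CSK4-labelled libraries and 25.4, 25.3 and 24.8 CPM in the untreated-labelled libraries. No groups overlapped, with the untreated-labelled values the lowest. Fen1 was 4.95-fold higher in Pam3CSK4-labelled than in untreated-labelled libraries (log2 2.31 ± 0.0495, adjusted p = 6.87e-25) and 4.40-fold lower in 3SL-labelled than in Pam3CSK4-labelled libraries (log2 -2.14 ± 0.0549, adjusted p = 5.51e-23). Of its exon bases, 78.8% are overlapped by the antisense gene Gm10143, whose reads could not be told apart from those of Fen1 if the counting did not use strand. Rpa2 (ENSMUSG00000028884; chromosome 4, 132768332 to 132778752, plus strand), a subunit of the protein that coats single-stranded DNA, had the largest p of the 3. Rpa2 measured 20.2, 21.7 and 19.4 CPM in the 3SL-labelled libraries, 77.4, 70.2 and 77.9 CPM in the Pam3CSK4-labelled libraries and 21.5, 21.2 and 21.1 CPM in the untreated-labelled libraries. Its untreated-labelled values fell inside the range of the 3SL-labelled ones. Rpa2 was 3.53-fold higher in Pam3CSK4-labelled than in untreated-labelled libraries (log2 1.82 ± 0.0629, adjusted p = 4.67e-20) and 3.66-fold lower in 3SL-labelled than in Pam3CSK4-labelled libraries (log2 -1.87 ± 0.0716, adjusted p = 6.09e-19).

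The 5 genes of nucleotide supply had medians of 2.33 and -2.38 in those comparisons, and held the gene that changed the least of all. Rrm1 (ENSMUSG00000030978; chromosome 7, 102441695 to 102469771, plus strand), the large subunit of ribonucleotide reductase, carries the active site that turns ribonucleotides into precursors of DNA. Rrm1 stood at 80.3, 69.8 and 67.0 CPM in the 3SL-labelled libraries, 271, 280.0 and 269.6 CPM in the Pam3CSK4-labelled libraries and 66.9, 70.1 and 70.6 CPM in the untreated-labelled libraries. Library A2plus was the highest outside the Pam3CSK4-labelled group, but far below it. Rrm1 was 3.96-fold higher in Pam3CSK4-labelled than in untreated-labelled libraries (log2 1.98 ± 0.0460, adjusted p = 4.22e-24) and 3.81-fold lower in 3SL-labelled than in Pam3CSK4-labelled libraries (log2 -1.93 ± 0.0496, adjusted p = 5.61e-23). Rrm2 (ENSMUSG00000020649; chromosome 12, 24708241 to 24714146, plus strand), the small subunit that is made in S phase, showed the larger fold. Rrm2 stood at 15.9, 16.0 and 15.5 CPM in the 3SL-labelled libraries, 95.8, 92.5 and 98.0 CPM in the Pam3CSK4-labelled libraries and 18.1, 15.4 and 13.7 CPM in the untreated-labelled libraries. The 3SL-labelled values lay inside the untreated-labelled range. Rrm2 was 6.02-fold higher in Pam3CSK4-labelled than in untreated-labelled libraries (log2 2.59 ± 0.0677, adjusted p = 6.77e-23) and 6.05-fold lower in 3SL-labelled than in Pam3CSK4-labelled libraries (log2 -2.60 ± 0.0776, adjusted p = 1.89e-21). Tyms (ENSMUSG00000025747; chromosome 5, 30058202 to 30073617, minus strand), the thymidylate synthase that makes the thymine building block and is a target of anticancer drugs, had the smallest fold of all 37 genes. Tyms measured 17.0, 16.0 and 18.2 CPM in the 3SL-labelled libraries, 29.9, 27.9 and 26.9 CPM in the Pam3CSK4-labelled libraries and 18.4, 18.8 and 18.1 CPM in the untreated-labelled libraries. Even here the lowest Pam3CSK4-labelled value was above the highest of the 6 others. Tyms was 1.52-fold higher in Pam3CSK4-labelled than in untreated-labelled libraries (log2 0.61 ± 0.0731, adjusted p = 2.74e-08) and 1.65-fold lower in 3SL-labelled than in Pam3CSK4-labelled libraries (log2 -0.73 ± 0.0845, adjusted p = 1.58e-08). Dut, which removes dUTP, was 8.0-fold higher, and Tk1, which salvages thymidine, was 5.01-fold higher in the Pam3CSK4-labelled against the untreated-labelled libraries. Members of 1 route to the thymine nucleotide thus ran from 1.52-fold to 8.0-fold.

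The 3 genes that copy chromatin marks and place histones behind the fork had medians of 3.37 and -3.16 in the same comparisons. Uhrf1 (ENSMUSG00000001228; chromosome 17, 56303321 to 56323486, plus strand), which reads half-methylated DNA and recruits the maintenance methyltransferase, had the smallest p of the role. Uhrf1 stood at 21.4, 18.4 and 16.7 CPM in the 3SL-labelled libraries, 173, 175 and 183 CPM in the Pam3CSK4-labelled libraries and 17.9, 16.6 and 17.4 CPM in the untreated-labelled libraries. The 2 lower groups overlapped, and the Pam3CSK4-labelled libraries stood far above them. Uhrf1 was 10.3-fold higher in Pam3CSK4-labelled than in untreated-labelled libraries (log2 3.37 ± 0.0563, adjusted p = 1.98e-27) and 9.52-fold lower in 3SL-labelled than in Pam3CSK4-labelled libraries (log2 -3.25 ± 0.0638, adjusted p = 1.00e-25). Chaf1b (ENSMUSG00000022945; chromosome 16, 93883901 to 93906115, plus strand) is a subunit of chromatin assembly factor 1, which deposits new histones. Chaf1b stood at 5.48, 4.60 and 5.08 CPM in the 3SL-labelled libraries, 43.7, 45.6 and 45.6 CPM in the Pam3CSK4-labelled libraries and 3.74, 4.70 and 3.39 CPM in the untreated-labelled libraries. The lowest 3SL-labelled value was below the highest untreated-labelled one. Chaf1b was 10.6-fold higher in Pam3CSK4-labelled than in untreated-labelled libraries (log2 3.41 ± 0.0942, adjusted p = 2.41e-22) and 8.97-fold lower in 3SL-labelled than in Pam3CSK4-labelled libraries (log2 -3.16 ± 0.110, adjusted p = 6.48e-20). Chaf1a (ENSMUSG00000002835; chromosome 17, 56040439 to 56072289, plus strand), the large subunit of the same factor, had the largest p of the 3. Chaf1a measured 12.8, 14.5 and 11.2 CPM in the 3SL-labelled libraries, 79.1, 75.4 and 77.3 CPM in the Pam3CSK4-labelled libraries and 12.7, 13.1 and 15.5 CPM in the untreated-labelled libraries. Library C2 was the highest of the 6 lower libraries. Chaf1a was 5.73-fold higher in Pam3CSK4-labelled than in untreated-labelled libraries (log2 2.52 ± 0.0736, adjusted p = 9.26e-22) and 6.01-fold lower in 3SL-labelled than in Pam3CSK4-labelled libraries (log2 -2.59 ± 0.0851, adjusted p = 1.82e-20). Of its exon bases, 52.5% are overlapped by Ubxn6 on the opposite strand.

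The roles did not keep their proportions. The helicase core held 21.1 to 22.5% of the summed CPM of the 37 genes in the 3SL-labelled libraries, 35.2 to 35.9% in the Pam3CSK4-labelled libraries and 20.7 to 22.1% in the untreated-labelled libraries. The clamp and its loader held 26.9 to 27.6% in the 3SL-labelled libraries, 17.8 to 18.0% in the Pam3CSK4-labelled libraries and 26.9 to 27.6% in the untreated-labelled libraries. Nucleotide supply held 15.9 to 16.7%, 12.2 to 12.4% and 16.3 to 16.9% in the same order of groups. For these roles the Pam3CSK4-labelled range did not overlap either other range. The summed CPM of the helicase core was 9.19 times higher in the Pam3CSK4-labelled than in the untreated-labelled libraries, that of the clamp and its loader 3.63 times and that of nucleotide supply 4.10 times.

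Levels of different genes were compared per kilobase of exon, using GENCODE M21 exon lengths. The length is the union of all annotated exons of a gene, such as 6089 bases for Tyms. It may be longer than the RNA that is made, so the order of the genes depends on it. Pcna had the highest level per kilobase of the 37 genes in each group, at 61.9 ± 3.72 CPM per kb in the 3SL-labelled, 223 ± 4.69 CPM per kb in the Pam3CSK4-labelled and 60.7 ± 1.52 CPM per kb in the untreated-labelled libraries (SD, n = 3 each). Mcm6 was the next highest in the Pam3CSK4-labelled libraries at 83.4 ± 2.71 CPM per kb, and 6th of the 37 in both other groups. Gins4 was the next highest in the 3SL-labelled and untreated-labelled libraries and 12th in the Pam3CSK4-labelled libraries. Tyms was the lowest of all in the Pam3CSK4-labelled libraries, at 4.64 ± 0.253 CPM per kb, and 19th in the untreated-labelled libraries. Cdc6 was the lowest in both other groups, at 0.677 ± 0.168 CPM per kb in the 3SL-labelled and 0.522 ± 0.0752 CPM per kb in the untreated-labelled libraries. Orc1 and Cdc6, neighbours at the bottom of the order in the 3SL-labelled libraries, did not differ beyond their spread there, with Orc1 at 0.698 ± 0.0911 CPM per kb. In the untreated-labelled libraries the next lowest, Pole at 0.719 ± 0.0447 CPM per kb, was above Cdc6 by more than their SDs added.

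The MCM2-7 proteins form a ring with 1 copy of each, and their messenger RNAs were nearer to each other per kilobase in the Pam3CSK4-labelled libraries. The ratio of the highest to the lowest subunit was 4.99, 6.06 and 5.49 in the 3SL-labelled libraries A2plus, B2plus and C2plus, 3.04, 3.22 and 3.04 in the Pam3CSK4-labelled libraries D1, D2 and D3, and 5.19, 5.27 and 4.47 in the untreated-labelled libraries A2, B2 and C2. All 3 Pam3CSK4-labelled ratios were below the other 6. Mcm2 was the lowest subunit in all 9 libraries. The highest was Mcm6 in all 3 Pam3CSK4-labelled libraries, Mcm3 in all 3 untreated-labelled libraries and in A2plus and C2plus, and Mcm5 in B2plus. Exon length is the union of the annotated exons. The length of Mcm2, 6956 bases, enters all 9 ratios, but that of the highest subunit differs between them. It was 4666 bases for Mcm6, 3752 for Mcm3 and 3993 for Mcm5. The ratios and the order of the subunits therefore depend on these lengths.

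**Figure D3:**
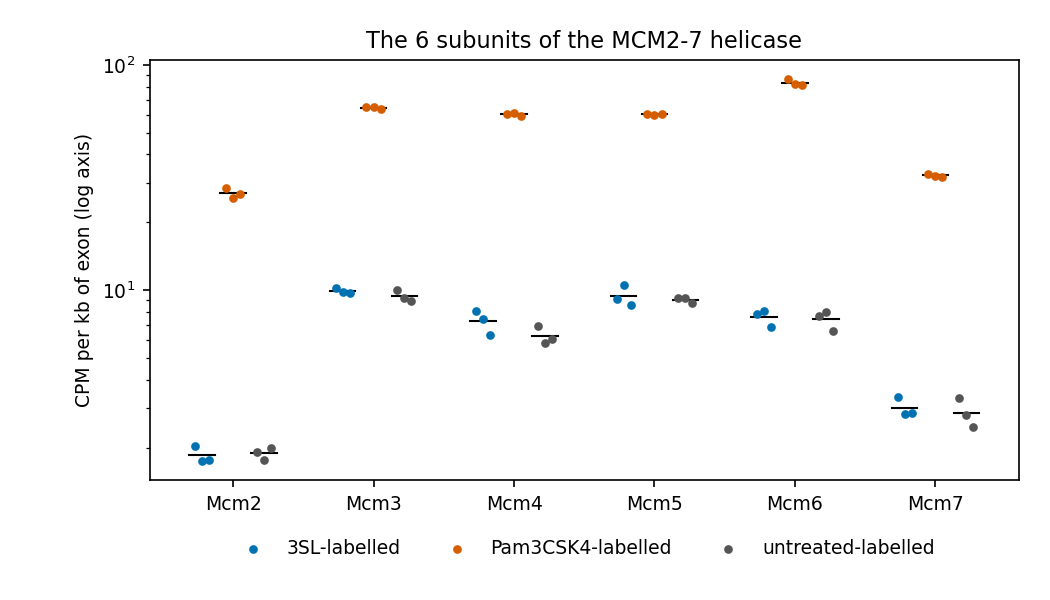
Level per kilobase of exon of the 6 MCM2-7 subunits, on a log axis, with 1 point per library and a bar at the mean of each group. The orange points (Pam3CSK4-labelled) span a 3.04-fold to 3.22-fold range from Mcm2 to Mcm6, a narrower range than the blue (3SL-labelled) and grey (untreated-labelled) points, whose highest subunit is Mcm3 or Mcm5.

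Between the 3SL-labelled and the untreated-labelled libraries 1 of the 37 genes was called higher and 0 lower, by edgeR and by DESeq2 alike. Across all genes tested 3.83% were called higher and 5.11% lower in the 3SL-labelled versus untreated-labelled libraries. These are 439 genes higher and 586 lower, against 788 higher and 406 lower without the scaling of library sizes. Cdt1 was the called gene, 1.38-fold higher in 3SL-labelled libraries than in untreated-labelled ones (log2 0.46 ± 0.102, adjusted p = 0.00303 by edgeR's quasi-likelihood test, 3 of 3 libraries above all untreated-labelled ones). Without the deepest library, B2, it was not called (log2 0.37, adjusted p = 0.0703). Mcm4 had an unadjusted p of 0.0105 and Fen1 of 0.0149, at log2 differences of 0.23 ± 0.0817 and 0.17 ± 0.0643, with adjusted p of 0.0869 and 0.109. Mcm4 was called without library C2plus (adjusted p = 0.0136) or without A2 (adjusted p = 0.0302), and both genes were called without the scaling of library sizes (adjusted p = 0.0385 for Mcm4 and 0.0365 for Fen1). The groups did not overlap for 4 genes, Orc1 and Pola2 (lower in the 3SL-labelled libraries) and Cdt1 and Fen1 (higher), beside 24.0% of all genes.

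The median log2 difference of the 37 genes between the 3SL-labelled and untreated-labelled libraries was -0.00062, with 18 above 0 and 19 below. The 95% interval lay within 0.5 on either side of 0 for 32 of them and within 1 for all 37, so a 2-fold difference in either direction was outside every interval. The 5 with wider reach were Cdt1, Gins3, Chaf1b, Orc1 (-0.71 to 0.17) and Cdc6 (-0.01 to 0.81). The best measured gene was Pcna, with an interval of -0.06 to 0.11. Tyms, the gene least changed by the other comparisons, differed by -0.12 ± 0.0868, with an unadjusted p of 0.175. The summed level of the 37 genes in the 3SL-labelled libraries was 1.02 times that in the untreated-labelled libraries. The libraries of these groups overlapped, at 711 to 766 CPM in the 3SL-labelled and 706 to 737 CPM in the untreated-labelled ones.

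Further genes of the replication fork and origins went the same way to a smaller degree. Of 31 such genes, 27 rose and 2 (Orc4 and Top1) fell in the Pam3CSK4-labelled against the untreated-labelled libraries, with a median of 1.15; without the scaling of library sizes 30 were higher and 0 lower. Wdhd1, which links the helicase to polymerase alpha, stood at 6.47, 6.07 and 7.42 CPM in the 3SL-labelled, 78.8, 83.9 and 79.2 CPM in the Pam3CSK4-labelled and 5.89, 5.57 and 5.73 CPM in the untreated-labelled libraries. Its log2 fold change was 3.83 ± 0.0765 in the Pam3CSK4-labelled against the untreated-labelled libraries (adjusted p = 1.31e-25). Gmnn, geminin, which binds Cdt1 and blocks loading, had 3.09 ± 0.0635 (adjusted p = 2.45e-25) in the same comparison, a change of the same direction as that of its target. Orc4, an origin recognition subunit, had -0.17 ± 0.0657 and Top1, a topoisomerase that relaxes DNA ahead of forks and of transcription, -0.40 ± 0.0437. In the 3SL-labelled against the Pam3CSK4-labelled libraries 27 fell and 1 (Top1) rose, with Topbp1, an activator of the checkpoint kinase at forks, at -2.21 ± 0.0525; without the scaling 30 were lower and 0 higher. In the 3SL-labelled versus untreated-labelled libraries Rnaseh2b, a subunit of the nuclease that removes ribonucleotides from DNA, was the 1 gene called (log2 -0.27 ± 0.0823, adjusted p = 0.0333 by edgeR), and 0 of the 31 were called without the scaling or by DESeq2.

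Of 10 genes of chromatin and DNA methylation at the fork, a list that also holds the repair helicases Mcm8 and Mcm9, 9 rose and 0 fell in the Pam3CSK4-labelled against the untreated-labelled libraries (median 1.84), and 9 fell in the 3SL-labelled against the Pam3CSK4-labelled libraries. Dnmt1, the maintenance methyltransferase that Uhrf1 recruits, stood at 67.2, 59.1 and 57.6 CPM in the 3SL-labelled, 359, 368 and 358 CPM in the Pam3CSK4-labelled and 51.6, 50.2 and 49.9 CPM in the untreated-labelled libraries. No groups overlapped, and it was 7.15-fold higher in the Pam3CSK4-labelled than in the untreated-labelled libraries (adjusted p = 4.09e-28). It was also 1.20-fold higher in 3SL-labelled libraries than in untreated-labelled ones (adjusted p = 0.00105), as was Atad2, a chromatin ATPase, at 1.15-fold (adjusted p = 0.0447), where DESeq2 called 1 of the 2. Asf1a, a histone chaperone, was the gene not called in the first 2 comparisons, at 10.7, 11.9 and 10.4 CPM, 11.0, 10.9 and 11.5 CPM and 11.4, 9.72 and 11.6 CPM in the 3 groups, while its relative Asf1b rose 3.39-fold in the Pam3CSK4-labelled against the untreated-labelled libraries.

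The rest of nucleotide metabolism was mixed. Of 32 genes, 26 rose and 3 fell in the Pam3CSK4-labelled against the untreated-labelled libraries (median 0.70), and 27 fell and 3 rose in the 3SL-labelled against the Pam3CSK4-labelled libraries (median -0.71). Adssl1, an enzyme of adenine nucleotide synthesis, was 4.11-fold higher in the Pam3CSK4-labelled than in the untreated-labelled libraries (adjusted p = 2.89e-21). The 3 genes that fell were Samhd1, which breaks down deoxynucleotides, at log2 -1.27 ± 0.0497, Rrm2b, the reductase subunit used outside S phase, at -0.73 ± 0.0910, and Mthfd2, a mitochondrial folate enzyme, at -0.65 ± 0.0474. Samhd1 stood at 402, 405 and 451 CPM in the 3SL-labelled, 203, 213 and 188 CPM in the Pam3CSK4-labelled and 464, 524 and 463 CPM in the untreated-labelled libraries, so it ran opposite to the reductase subunits Rrm1 and Rrm2. In the 3SL-labelled versus untreated-labelled libraries Samhd1, Dck and Dtymk were lower, at log2 -0.21 ± 0.0486, -0.22 ± 0.0550 and -0.37 ± 0.103 (adjusted p = 0.00484, 0.0109 and 0.0225). These were 3 of the 32 genes, beside 5.11% of all genes called lower.

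Genes of mitosis and of entry into S phase were read beside these. All 15 genes of mitosis rose in the Pam3CSK4-labelled against the untreated-labelled libraries (median 0.95) and fell in the 3SL-labelled against the Pam3CSK4-labelled libraries (median -0.88). Between the 3SL-labelled and untreated-labelled libraries 0 were called by edgeR or by DESeq2, where edgeR called 3.83% of all genes higher and 5.11% lower. The first median is smaller than the 2.52 of the 37 replication genes, a difference given as a description. Ccna2, cyclin A2, and Kif11, a spindle motor, were 2.55-fold and 2.58-fold higher in the Pam3CSK4-labelled against the untreated-labelled libraries. Between the 3SL-labelled and untreated-labelled libraries the smallest p among the 15 were those of Bub1b and Ccnb1, cell division genes that are named for this reason. Their log2 differences there of 0.17 ± 0.0750 and -0.16 ± 0.0709 had opposite signs and adjusted p of 0.164 and 0.173 by edgeR, and only these 2 of the 15 had an unadjusted p under 0.05. Of 22 genes of G1/S control, 15 rose and 4 fell in the Pam3CSK4-labelled against the untreated-labelled libraries (median 0.79), and 14 fell and 3 rose in the 3SL-labelled against the Pam3CSK4-labelled libraries. Ccnd1, cyclin D1, was 26.9-fold and Rbl1, a relative of the retinoblastoma protein, 4.59-fold higher in the first of these. The 4 that fell were Cdkn1a and Cdkn1b, inhibitors of cyclin-dependent kinases, at log2 -1.40 ± 0.0383 and -0.53 ± 0.0656, Ccnd2, cyclin D2, at -1.09 ± 0.102, and E2f4, a repressing E2F, at -0.23 ± 0.0617; without the scaling 3 were lower. E2f2, an activating E2F, stood at 3.94, 4.11 and 2.44 CPM in the 3SL-labelled, 41.1, 38.3 and 39.1 CPM in the Pam3CSK4-labelled and 1.65, 2.06 and 1.38 CPM in the untreated-labelled libraries. It was higher in 3SL-labelled libraries than in untreated-labelled ones (log2 0.90 ± 0.213, adjusted p = 0.00591), as was Ccnd1 (log2 0.37 ± 0.0889, adjusted p = 0.00609), and Cdkn1a was lower (log2 -0.14 ± 0.0371, adjusted p = 0.0152). Without the scaling 0 of the 22 were called lower in that comparison.

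**Figure D4:**
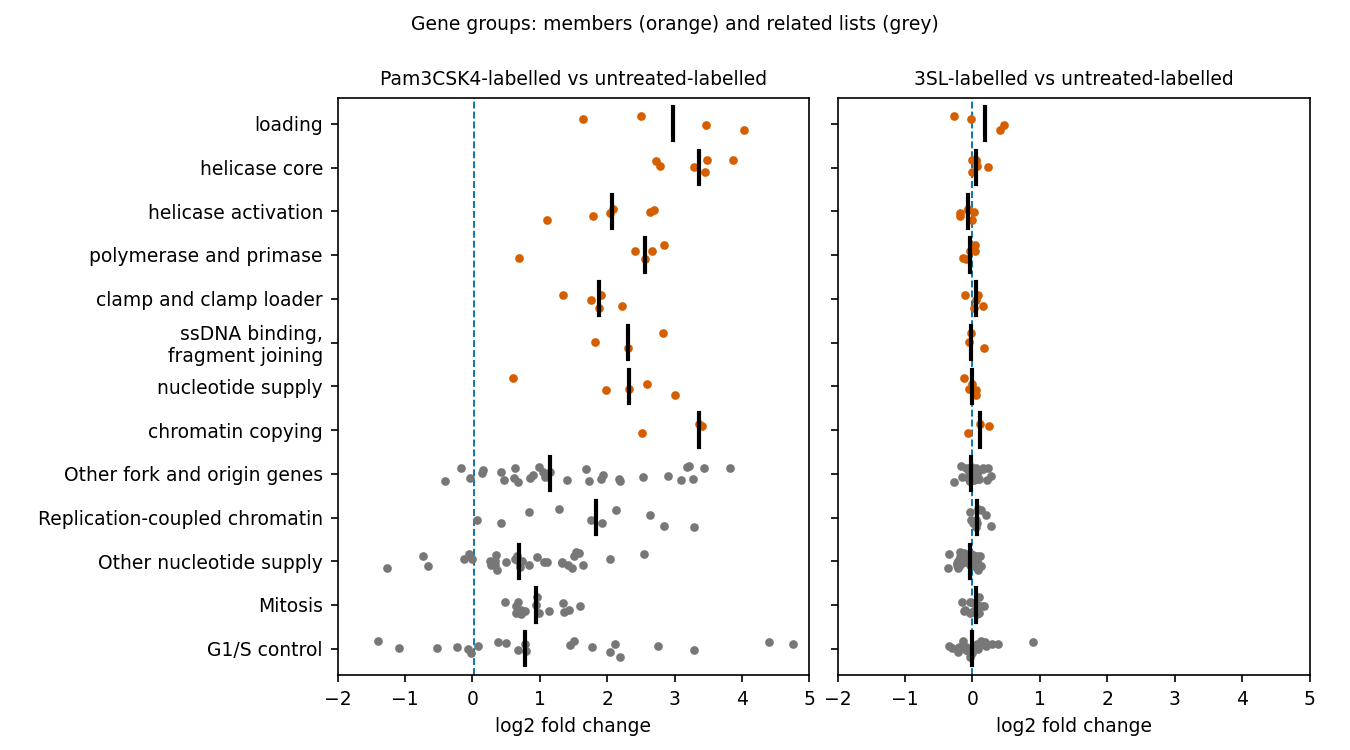
Log2 fold change of each gene, 1 point per gene, by role for the 37 genes (orange) and by list for the related genes (grey), with a black bar at each median and a dashed line at the median of all genes tested. In the left panel (Pam3CSK4-labelled against untreated-labelled) every orange point lies above 0 and the role medians run from 1.88 to 3.37, above those of the related lists (0.70 to 1.84), and in the right panel (3SL-labelled against untreated-labelled) the points gather around 0.

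The libraries were checked for their cell type. All 11 macrophage markers were detected and tested in this table, with summed levels of 23718 to 24440.1 CPM in the 3SL-labelled, 19031 to 19464 CPM in the Pam3CSK4-labelled and 24468 to 25033 CPM in the untreated-labelled libraries. The 8 markers of bone marrow progenitors, which divide, summed to 43.8 to 50.7 CPM, 84.1 to 85.3 CPM and 47.1 to 51.0 CPM in the same groups. Of the 7 that were tested, 5 (Kit, Cd34, Mpo, Elane and Prtn3) rose in the Pam3CSK4-labelled against the untreated-labelled libraries, beside 39.0% of all genes. The same 5 fell in the 3SL-labelled against the Pam3CSK4-labelled libraries, beside 36.8% of all genes, the directions of the replication genes. Myb and Ctsg were called in neither comparison. Myb had means of 2.44, 3.05 and 3.25 CPM in the 3SL-labelled, Pam3CSK4-labelled and untreated-labelled libraries, so it was not highest in the Pam3CSK4-labelled ones. The part of the progenitor markers in the result was not tested. Neutrophil markers summed to 527 to 580.2 CPM, 387 to 509.6 CPM and 656 to 686 CPM, and dendritic cell markers to 89.3 to 93.3 CPM, 40.3 to 40.8 CPM and 91.3 to 93.8 CPM in the 3SL-labelled, Pam3CSK4-labelled and untreated-labelled libraries. Of the 8 dendritic cell markers 5 were tested, and Itgax alone had means of 84.8, 36.3 and 82.5 CPM in those groups. In the Pam3CSK4-labelled against the untreated-labelled libraries 4 dendritic cell markers were called lower and 1, Batf3, higher. There 4 macrophage markers were called higher and 5 lower, and 2 neutrophil markers higher and 5 lower. Of the lymphocyte, stromal and the erythroid, megakaryocyte and mast markers 1 of 9, 1 of 7 and 2 of 8 passed the filter. In the same order of groups, lymphocyte markers summed to 9.35 to 11.5, 11.0 to 13.4 and 10.3 to 12.0 CPM. Stromal markers summed to 8.43 to 10.3, 2.18 to 3.12 and 12.1 to 13.6 CPM. The last list summed to 379 to 427, 241 to 253 and 493 to 533 CPM, of which Pf4 alone had means of 392, 242 and 508 CPM.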

How the data were processed

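RNA was sequenced from 9 libraries of mouse macrophages, in 3 groups of 3 taken from the labels. The authors deposited raw counts per Ensembl gene, made with HISAT2 2.1.0 and featureCounts of Subread per the submitters' processing notes. Those notes name build hg38 although the identifiers are mouse; the strand setting is not given in the sources used here. A further 15 columns of the table were not used. Of 22001 identifiers, 11469 passed edgeR's filterByExpr. Counts were fitted as deposited with edgeR 4.0.16 in R 4.3.3 (TMM scaling, glmQLFit and glmQLFTest, all 9 libraries in 1 model), with Benjamini-Hochberg adjustment over all genes tested and a threshold of 0.05. Values after ± are standard errors for log2 fold changes and SDs for levels. CPM scales each count to the TMM-scaled library size, and 3 counts are worth 0.0746 to 0.422 CPM. Intervals and floors cover counting error and the spread between libraries only. The script was tested on simulated counts in which few genes changed, with as many raised as lowered. That test does not cover a change of as many genes as was seen here. Positions and exon lengths are from GENCODE M21 on GRCm38, and promoter letters from RefSeq on GRCm38.p6.

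The members and lists were chosen with earlier results of these data known. In each role the 2 genes of smallest p and the 1 of largest p are described in full; in related lists the 2 of smallest p are named, and every called exception, save for an item that is not reported here. Alternatives were DESeq2 1.42.0, DESeq2 size factors, library size only, no filter, a filter of 1 CPM in 3 libraries, a fit to the 2 groups compared, thinning to 7472482 counts, leaving out each library and a block for the letter.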

Additional observations from a re-analysis of the deposited data

How the results depend on the processing

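In every alternative, all 37 genes were called higher in the Pam3CSK4-labelled against the untreated-labelled libraries and all 37 lower in the 3SL-labelled against the Pam3CSK4-labelled libraries, with log2 fold changes of 0.56 to 4.35 and of -4.15 to -0.67. In 3SL-labelled versus untreated-labelled libraries the log2 differences ran from -0.41 to 0.61. The lower end was Orc1 in the thinned counts, and a second random draw of the thinning, chosen after seeing the data, left the calls on the 37 genes at the same numbers. Between these groups, 3 genes were called higher with library size only (Cdt1, Mcm4 and Fen1), and leaving out 1 library gave 0 to 2, with 0 without untreated-labelled B2; the cause was not tested. No called log2 fold change of the 37 genes turned round, but role medians near 0 in that comparison changed sign with library size only, as for polymerase and primase (0.0029, against -0.04 with TMM scaling). Libraries of the same letter (A, B or C) in the 3SL-labelled and untreated-labelled groups did not deviate together (correlations of -0.017, 0.042 and 0.008). With 3 libraries a group and the noise of single libraries, these values cannot decide whether the letter pairs them. What the letter marks is not in the labels. With the replicate block for the letter, 1 of the 37 genes was called (Cdt1, log2 0.45, adjusted p = 0.0124 by edgeR), and 402 genes were higher and 549 lower, against 439 and 586 without it. Scaling by library size only gave 788 higher and 406 lower there, so the balance of calls over all genes turned round, with a median of all genes of 0.04. Low counts limit Orc1, Cdc6, Gins1, Gins3, Dut and Chaf1b, and with 3 libraries a group an exact permutation test could not go below 0.1.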
